A study of Mus musculus with 6 samples.

Results

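Type I interferon-stimulated genes are the genes that cells switch on when interferon alpha or beta binds its receptor. A list of 38 mouse genes of this kind was matched by symbol, and all 38 were found among the 55401 genes of the expression table. The data are 6 RNA sequencing libraries of primary mouse liver cultures labelled as hepatic stellate cells, the vitamin A-storing pericytes of the liver that become collagen-producing myofibroblasts on plastic. Of these, 3 came from C57BL/6J mice carrying the genotype S100a16+/- and 3 from WT mice of the same strain, and all cultures were kept for 7 days in medium with FBS. S100a16 is a calcium-binding protein with EF hands, and the comparison asks how transcript levels differ in these cultures when it is reduced. The labels give the genotype but not the kind of allele, the age or sex of the mice or whether each library is a separate animal, so p-values measure only the spread between these libraries. Levels are given as FPKM, which is scaled to gene length and library size. Genes were tested if 3 or more of the 6 libraries had an FPKM of 1 or higher, which 36 of the 38 met and Mx1 and Mx2 did not.

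Interferon alpha and beta bind a receptor made of IFNAR1 and IFNAR2. The kinases JAK1 and TYK2 then phosphorylate STAT2, which joins IRF9 in a complex called ISGF3. ISGF3 enters the nucleus and binds the interferon-stimulated response element (ISRE), a DNA sequence in front of its target genes. The targets include sensors of viral nucleic acid, enzymes that block viral entry, replication and release, and both amplifiers and brakes of the pathway itself, so that the sensors can feed back on interferon production. In the liver, Kupffer cells, endothelial cells, stellate cells and hepatocytes can all respond to interferon.

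Promoter windows reaching from 250 bases before to 50 bases after an annotated gene start were found for 27 of the 38 genes in the RefSeq annotation of GRCm38.p6. The ISRE core was searched as GAAA, any 2 bases, GAAA on either strand, with overlapping matches allowed. It was present for 12 of these 27 genes (44.4%), against 3.99% of the 27025 genes with a window. Another element, the gamma-activated site written TTCNNNGAA, was present for 8 of the 27 (29.6%), against 9.55% of all genes. A match is a run of letters and was not measured as a binding site here. The stretches below are shown because they carry the ISRE core in genes on which the results turn, with Stat2 as a gene that passed the test and Rsad2 and Bst2 as genes that were high in 1 library. Each is written 5′ to 3′ on the strand of its gene, and capitals mark the letters of every core match, which run together where matches overlap.
Stat2, chr10:128270258-128270307, plus strand: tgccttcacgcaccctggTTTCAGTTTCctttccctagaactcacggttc
Ifit1, chr19:34640764-34640823, plus strand: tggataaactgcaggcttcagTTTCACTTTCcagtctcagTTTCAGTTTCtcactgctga
Ifit3, chr19:34583359-34583428, plus strand: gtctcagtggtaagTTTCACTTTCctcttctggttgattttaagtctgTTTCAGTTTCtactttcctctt
Ifit3b, chr19:34607755-34607824, plus strand: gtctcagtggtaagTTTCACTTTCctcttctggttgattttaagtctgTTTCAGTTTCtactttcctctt
Isg15, chr4:156200859-156200918, minus strand: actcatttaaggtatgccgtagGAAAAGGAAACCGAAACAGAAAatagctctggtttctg
Rsad2, chr12:26456548-26456587, minus strand: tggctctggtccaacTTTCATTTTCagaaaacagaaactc
Bst2, chr8:71537573-71537622, minus strand: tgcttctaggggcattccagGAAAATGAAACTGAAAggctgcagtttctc
The Ifit1, Ifit3 and Ifit3b stretches each hold a pair of separate matches. The Ifit3 and Ifit3b stretches were identical over all 70 bases, and in Isg15 and Bst2 consecutive matches overlapped into a longer purine-rich run.

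Libraries held 61979103 to 76291481 counts. S100a16 itself had FPKM values of 18.05, 17.7 and 30.0 in S100a16+/- replicates 1 to 3 and 57.7, 58.8 and 56.8 in WT replicates 1 to 3, so the labels held in every library, and it fell in S100a16+/- (log2 change -1.35, edgeR adjusted p = 0.0313). S100a16+/- replicate 3 stood apart. Across tested genes its log2(FPKM + 1) values correlated at 0.930 and 0.929 with the other S100a16+/- libraries, against 0.987 between those and 0.981 to 0.985 among WT libraries, a description over genes that are not independent. It carried Xist, the X-inactivation RNA of female cells, at an FPKM of 32.2 where the other 5 libraries had at most 0.0323, and the Y-linked gene Ddx3y at 0.0102 against 12.1 to 15.8. Its level of the myofibroblast marker Acta2 was 48.0, against 388 to 489 elsewhere. Of 15 stellate cell markers, 6, Lrat, Gfap and Reln among them, were under an FPKM of 1 in all 6 libraries. Another 9 were high enough to be tested, such as Col1a1 at 189 to 221 outside S100a16+/- replicate 3 and 21.4 in it. Calls are therefore given with S100a16+/- replicate 3 and, where they differ, without it.

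In S100a16+/- cultures 7 of the 36 tested interferon-stimulated genes rose and none fell, in a fit of all 12766 tested genes by edgeR's quasi-likelihood test at an adjusted p under 0.05. This is 19.4% of the tested members, beside 2.85% of all tested genes called higher and 1.61% called lower. The members were chosen with earlier results of these data known, so such shares are a description. The 7 were Helz2, Rtp4, Stat2, Dhx58, Lgals3bp, Herc6 and Ifi35, with fitted changes of 1.63-fold to 3.03-fold. The median log2 change over the 36 was 0.76, beside 0.00 over all tested genes, and the 36 all had a log2 change above 0 (50.2% of all tested genes) in this fit, while under 7 of the alternatives, scaling by library totals among them, Isg20 was below 0, as was Rsad2 under 1, without S100a16+/- replicate 3. Over all 38 members, 30 had all 3 S100a16+/- FPKM values above all 3 WT values, beside 12.5% of tested genes. The 8 whose groups overlapped were Bst2, Rsad2, Cmpk2, Mx2, Isg20, Ifit3b, Uba7 and Ifi204.

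The number of calls depended on S100a16+/- replicate 3. It was the highest of the 6 libraries for 37 of the 38 members, all but Samhd1, beside 24.6% of tested genes. Without it, 26 of the 36 tested members rose and none fell (edgeR), beside 15.8% of all tested genes called higher and 16.5% called lower. The median log2 change of the members was then 0.41, so the changes were smaller while the spread within the group was smaller too. Without S100a16+/- replicate 1 or 2 the calls numbered 2 and 1, beside 0.365% and 0.254% of all tested genes called higher. Without WT replicate 1, 2 or 3 they numbered 1, 1 and 0, beside 0.239%, 0.183% and 0.159%. With DESeq2 in place of edgeR on all 6 libraries, 22 of the 36 were called higher, beside 8.85% of all genes.

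**Figure D1:**
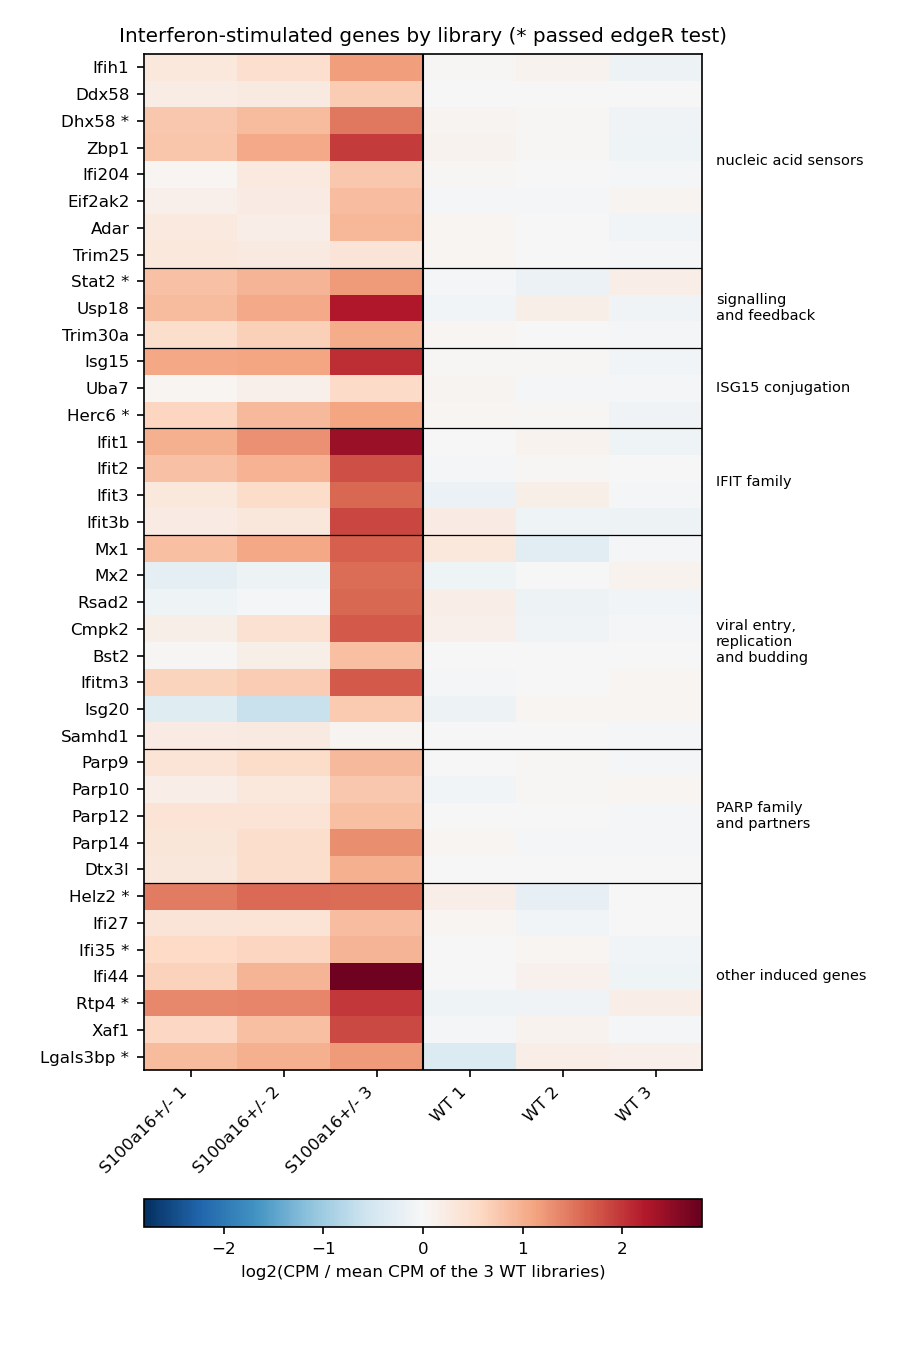
Log2 ratio of CPM (counts scaled to library size) to the mean of the 3 WT libraries for each of the 38 interferon-stimulated genes (rows, grouped by role) in each library (columns), red above and blue below the WT mean, with an asterisk on the 7 that passed the edgeR test. S100a16+/- replicate 3 holds the strongest red in most rows, while Helz2 and Rtp4 are red in all 3 S100a16+/- libraries and Isg20 is blue in replicates 1 and 2.

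Among the nucleic acid sensors, 1 of 8 rose with all 6 libraries and 6 of 8 without S100a16+/- replicate 3. Beside these and the counts by role below, the shares of all tested genes called higher were 2.85% and 15.8% (edgeR). Dhx58 (ENSMUSG00000017830, chromosome 11, 100694884 to 100704271, minus strand) encodes LGP2, the RIG-I-like receptor that tunes the other members of its family. Its FPKM was 7.17, 7.81 and 12.1 in S100a16+/- replicates 1 to 3 and 4.65, 4.50 and 4.11 in WT replicates 1 to 3, lists being given in that order from here on. All 3 S100a16+/- values lay above the WT range, with means of 9.04 ± 2.71 and 4.42 ± 0.277 (SD, n = 3 each). Dhx58 rose 2.11-fold (log2 change 1.08 ± 0.21 SE, edgeR adjusted p = 0.0490), and by 0.82 on the log2 scale without replicate 3 (edgeR adjusted p = 0.00174).

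The relatives of Dhx58 differed less between the groups. Ddx58, which encodes the RNA sensor RIG-I, had FPKM values of 13.3, 13.5 and 19.3 against 12.0, 11.8 and 12.0. Ifih1, which encodes MDA5, the sensor of long double-stranded RNA, had 5.23, 5.82 and 9.68 against 4.49, 4.70 and 4.04. For both, S100a16+/- replicates 1 and 2 stood a little above WT and replicate 3 well above, and neither passed with all 6 libraries (log2 changes 0.41 ± 0.14 and 0.69 ± 0.23, edgeR adjusted p = 0.173 and 0.165). Without replicate 3 both passed, at log2 changes of 0.23 and 0.39. Trim25, the ubiquitin ligase that acts on RIG-I, was among the 6 most abundant members. Its values were 28.0, 26.9 and 29.9 against 24.4, 23.5 and 22.9, a small difference of nearly the same size in all 3 S100a16+/- libraries that just missed the threshold (log2 change 0.31 ± 0.06, edgeR adjusted p = 0.0513; 0.28 and adjusted p = 0.00677 without replicate 3).

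Zbp1, a sensor of left-handed double-stranded nucleic acid that can trigger necroptosis, had the largest change of the sensors. Its FPKM was 2.59, 3.15 and 6.01 against 1.68, 1.60 and 1.43. The groups did not overlap, but the spread among the S100a16+/- libraries left it above the threshold (log2 change 1.36 ± 0.32, edgeR adjusted p = 0.0798; 0.93 and adjusted p = 0.00520 without replicate 3). Ifi204, an interferon-inducible DNA sensor of the PYHIN family, had 24.9, 28.9 and 41.5 against 25.7, 25.2 and 24.4, and replicate 1 lay inside the WT range. Its transcripts are 96.9% identical to those of Ifi211 over 1363 bases, so counts could be split between copies. Eif2ak2 encodes PKR, the kinase that halts translation on double-stranded RNA, and Adar encodes the adenosine deaminase that edits such RNA. Their log2 changes were 0.46 and 0.50 with edgeR adjusted p = 0.263 and 0.231. Without replicate 3, Adar passed at 0.23 and Eif2ak2 did not at 0.19.

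Of the signalling and feedback genes 1 of 3 rose, and all 3 did without S100a16+/- replicate 3. Stat2 (ENSMUSG00000040033, chromosome 10, 128270559 to 128292849, plus strand) encodes the ISGF3 subunit that is specific to the type I and type III pathways, and its promoter window holds the ISRE core printed above. Its FPKM was 8.44, 9.19 and 11.2 against 4.81, 4.49 and 5.70, with means of 9.62 ± 1.45 and 5.00 ± 0.622 (SD, n = 3 each). The 3 S100a16+/- libraries were close to one another and clear of WT. Stat2 rose 1.99-fold (log2 change 0.99 ± 0.14 SE, edgeR adjusted p = 0.0246), and by 0.88 without replicate 3 (adjusted p = 0.00316).

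Usp18 removes ISG15 from proteins and blocks the IFNAR2 receptor chain, which makes it the main brake of the pathway. It had FPKM values of 4.82, 5.40 and 12.8 against 2.58, 3.06 and 2.55. Replicates 1 and 2 lay above every WT library and replicate 3 was 2.50 times their mean. It did not pass with all 6 libraries (log2 change 1.53 ± 0.39, edgeR adjusted p = 0.0919) and passed without replicate 3 (0.97, adjusted p = 0.00310). Trim30a, a TRIM protein that restrains Toll-like receptor signalling, had 18.2, 20.5 and 27.2 against 14.0, 13.5 and 13.1 and missed the threshold narrowly (0.75 ± 0.15, edgeR adjusted p = 0.0507; 0.58 and adjusted p = 0.00265 without replicate 3).

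The ISG15 system attaches a small ubiquitin-like protein, ISG15, to newly made proteins, with UBA7 as its activating enzyme and HERC6 as its main ligase in mice. Isg15 had FPKM values of 25.9, 26.1 and 52.9 against 13.0, 13.2 and 12.2. In S100a16+/- replicates 1 and 2 it was at 202% and 204% of the WT mean and in replicate 3 at 414%. With all 6 libraries it missed the threshold (log2 change 1.50 ± 0.30, edgeR adjusted p = 0.0526), and without replicate 3 it rose by 1.09 (adjusted p = 0.000452). An annotated sequence, AC151275.1, is 95.2% identical to Isg15 over 482 bases.

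Herc6 (ENSMUSG00000029798, chromosome 6, 57581000 to 57664632, plus strand) was the member of this system that passed. Its FPKM was 2.87, 3.56 and 4.15 against 2.05, 2.01 and 1.86, with means of 3.53 ± 0.638 and 1.97 ± 0.102 (SD, n = 3 each), and the groups did not overlap. It rose 1.85-fold (log2 change 0.89 ± 0.14 SE, edgeR adjusted p = 0.0330; 0.77 and adjusted p = 0.00529 without replicate 3). Uba7 stayed close to WT in replicates 1 and 2, with 6.86, 7.16 and 9.79 against 7.15, 6.71 and 6.63. Its log2 change of 0.26 ± 0.14 was among the 4 smallest of the members (edgeR adjusted p = 0.337).

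The IFIT proteins bind viral RNA and block its translation, and their genes lie in a cluster on chromosome 19. In the order Ifit2, Ifit3, Ifit3b and Ifit1 the starts are 32.8, 24.4 and 32.9 kb apart, all on the plus strand. None of the 4 passed with all 6 libraries, and Ifit1 and Ifit2 passed without S100a16+/- replicate 3. Ifit1 had the second-largest log2 change of all members. Its FPKM was 5.14, 6.21 and 14.2 against 2.71, 2.87 and 2.48, and replicates 1 and 2 were each above every WT library (log2 change 1.71 ± 0.39, edgeR adjusted p = 0.0747; 1.14 and adjusted p = 0.00191 without replicate 3). Ifit2 had 7.98, 8.80 and 16.2 against 4.57, 4.81 and 4.75 (log2 change 1.27 ± 0.27, edgeR adjusted p = 0.0638; 0.90 and adjusted p = 0.000634).

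The neighbouring Ifit3 and Ifit3b showed less in replicates 1 and 2. Ifit3 had 12.6, 14.5 and 32.1 against 9.49, 12.0 and 10.6, and Ifit3b 3.49, 3.69 and 11.2 against 3.62, 2.86 and 2.82. Ifit3b did not separate the groups, and without replicate 3 neither gene passed (log2 changes 0.41 and 0.28, edgeR adjusted p = 0.0569 and 0.228). The transcripts of this pair are 97.8% identical over 1700 bases, so their counts could be split or shared, and values for either alone are uncertain.

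Of the 8 genes that act on viral entry, replication and budding, 6 were tested and none passed with all 6 libraries. Without S100a16+/- replicate 3, Ifitm3 and Samhd1 rose. Ifitm3 encodes a membrane protein that stops viruses from fusing with endosomes, and it was the most abundant member. Its FPKM was 272, 287 and 592 against 177, 182 and 191, and no S100a16+/- library overlapped WT (log2 change 1.11 ± 0.31, edgeR adjusted p = 0.109; 0.67 and adjusted p = 0.000454 without replicate 3). Samhd1, a phosphohydrolase that depletes nucleotides needed by retroviruses, was the exception to the replicate 3 pattern. Its values were 14.9, 15.1 and 13.8 against 13.5, 13.5 and 13.0, a difference carried by replicates 1 and 2 (log2 change 0.18 ± 0.07, edgeR adjusted p = 0.193; 0.24 and adjusted p = 0.00758 without replicate 3).

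Several genes of this group lay well above WT in replicate 3 alone. Bst2 encodes tetherin, which holds budding virus at the cell surface, and was the second most abundant member. It had 212, 231 and 383 against 218, 214 and 219, so replicates 1 and 2 bracketed WT (log2 change 0.39 ± 0.22, edgeR adjusted p = 0.373; 0.09 and adjusted p = 0.223 without replicate 3). Rsad2, which encodes viperin, an enzyme that makes a chain-terminating nucleotide, had 5.97, 6.19 and 20.2 against 7.66, 6.14 and 6.40. Replicates 1 and 2 lay at or below WT and replicate 3 at 3.31 times their mean, and the fitted change went from 0.72 ± 0.50 (edgeR adjusted p = 0.467) to -0.08 without replicate 3. Cmpk2, the nucleotide kinase whose gene starts 12.8 kb from that of Rsad2 on the opposite strand, had 2.42, 2.85 and 7.24 against 2.43, 2.10 and 2.16 (0.94 ± 0.42, edgeR adjusted p = 0.268; 0.30 and adjusted p = 0.126 without replicate 3).

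Isg20, an exonuclease of single-stranded RNA, went the other way in replicates 1 and 2. Its FPKM was 1.66, 1.37 and 3.57 against 1.99, 2.30 and 2.31, so those replicates were below every WT library and replicate 3 above. It had the smallest change of the tested members (log2 change 0.04 ± 0.37, edgeR adjusted p = 0.959), and without replicate 3 the value was -0.47 (adjusted p = 0.0853). The dynamin-like GTPases Mx1 and Mx2 were under the level needed for testing. Mx1 had 0.756, 0.876 and 1.36 against 0.530, 0.342 and 0.422, with groups that did not overlap. Mx2 had 0.433, 0.466 and 1.60 against 0.503, 0.551 and 0.581, so it was below WT in replicates 1 and 2 and above in replicate 3. Their transcripts are 95.3% identical over 843 bases, and counts could be shared between them.

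**Figure D2:**
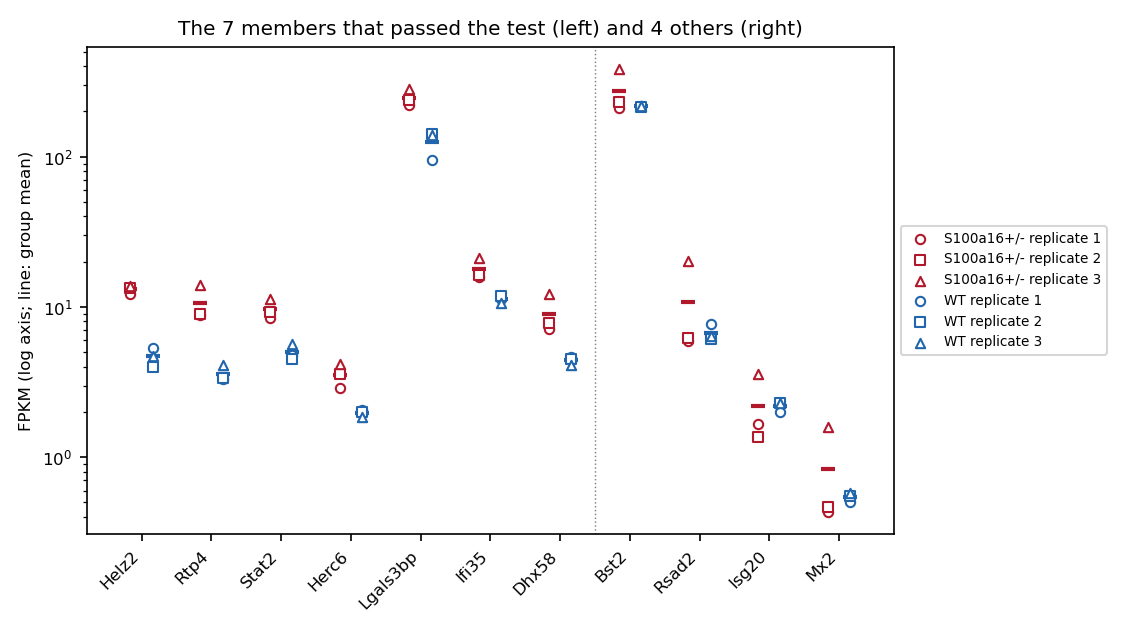
FPKM on a log axis for the 7 members that passed the edgeR test (left) and for Bst2, Rsad2, Isg20 and Mx2 (right), with S100a16+/- in red, WT in blue, marker shape for the replicate number and a line at each group mean. On the left every S100a16+/- point lies above every WT point, from 2.87 against at most 2.05 for Herc6 to 222 against at most 143 for Lgals3bp, and on the right S100a16+/- replicate 3 (triangle) is the highest point of each gene while replicates 1 and 2 lie close to WT or below it.

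The PARP family members attach ADP-ribose to proteins, and DTX3L is the ubiquitin ligase that pairs with PARP9. None of these 5 genes passed with all 6 libraries, and 4 of 5 passed without S100a16+/- replicate 3. Their log2 changes were 0.62 for Parp9, 0.43 for Parp10, 0.55 for Parp12, 0.77 for Parp14 and 0.63 for Dtx3l, with edgeR adjusted p from 0.0778 (Parp9) to 0.192 (Parp10). The order of the libraries was alike in all 5, with replicates 1 and 2 modestly above WT and replicate 3 above those. Parp14, which promotes interleukin-4 signalling in macrophages and lymphocytes, shows it best with 19.3, 21.4 and 38.6 against 16.6, 15.6 and 15.7. Without replicate 3 its log2 change was 0.41 (edgeR adjusted p = 0.00551), and that of Parp10, which did not pass, was 0.24 (adjusted p = 0.0548).

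Positions limit the reading of 3 of these genes. Parp9 and Dtx3l start 681 bases apart on opposite strands of chromosome 16 and their gene spans overlap by 682 bases. Parp10 overlaps Plec, a cytoskeletal gene on the same strand with 116784 counts over the 6 libraries against 14572 for Parp10. The sources used here do not say whether counting used the strand, so reads from the Parp9 and Dtx3l overlap may not have been separated. For Parp10 and Plec, on the same strand, use of the strand would not separate reads from their overlap.

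The remaining 7 genes have varied or less settled roles, and 4 of them passed with all 6 libraries and 7 of 7 without S100a16+/- replicate 3. Helz2 (ENSMUSG00000027580, chromosome 2, 181227615 to 181242027, minus strand) encodes a helicase and coactivator of nuclear receptors. Its FPKM was 12.3, 13.4 and 13.7 against 5.33, 4.00 and 4.72, with means of 13.1 ± 0.739 and 4.69 ± 0.665 (SD, n = 3 each). The S100a16+/- libraries agreed closely and replicate 3 was only 1.07 times the mean of the others. Helz2 rose 2.90-fold (log2 change 1.53 ± 0.12 SE, edgeR adjusted p = 0.00622), and by 1.52 without replicate 3 (adjusted p = 0.000685). It passed in 5 of the 6 fits that left out 1 library, and in the remaining one, without WT replicate 3, no member passed.

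Rtp4 (ENSMUSG00000033355, chromosome 16, 23520291 to 23614222, plus strand) encodes a chaperone of G protein-coupled receptors that is strongly induced by interferon. Its FPKM was 8.81, 8.92 and 14.1 against 3.31, 3.37 and 4.14, and the lowest S100a16+/- value was above the highest WT value by more than the whole WT range. With means of 10.6 ± 3.00 and 3.60 ± 0.463 (SD, n = 3 each), it rose 3.03-fold (log2 change 1.60 ± 0.21 SE, edgeR adjusted p = 0.0228; 1.36 and adjusted p = 0.000866 without replicate 3). It overlaps Masp1 on the opposite strand, which had 120919 counts over the 6 libraries against 6856 for Rtp4, so its counts are uncertain if strand was not used.

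Lgals3bp (ENSMUSG00000033880, chromosome 11, 118392751 to 118402092, minus strand) encodes a secreted glycoprotein that binds galectin-3. Its FPKM was 222, 238 and 283 against 95.5, 143 and 139, which makes it the most abundant of the 7 called genes. Its WT values spread more than those of the other called genes, with WT replicate 1 low, and the groups did not overlap. With means of 247 ± 31.6 and 126 ± 26.2 (SD, n = 3 each), it rose 2.04-fold (log2 change 1.03 ± 0.18 SE, edgeR adjusted p = 0.0407; 0.93 and adjusted p = 0.0121 without replicate 3). Ifi35 (ENSMUSG00000010358, chromosome 11, 101448407 to 101458698, plus strand) encodes a leucine zipper-containing cytoplasmic protein. It had 15.9, 16.3 and 21.2 against 11.4, 11.8 and 10.6, with means of 17.8 ± 2.97 and 11.3 ± 0.579 (SD, n = 3 each). It rose 1.63-fold (log2 change 0.71 ± 0.13 SE, edgeR adjusted p = 0.0412; 0.58 and adjusted p = 0.00281 without replicate 3).

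Ifi44, a cytoplasmic protein gene, had the largest log2 change of all members and the widest spread. Its FPKM was 1.38, 1.69 and 5.98 against 0.902, 1.0 and 0.850. All 3 values were above WT, but replicate 3 was 3.90 times the mean of replicates 1 and 2, the highest such ratio of the 38, and the gene did not pass (log2 change 1.75 ± 0.58, edgeR adjusted p = 0.159; 0.80 and adjusted p = 0.00947 without replicate 3). Ifi27, a mitochondrial protein gene among the most abundant members, had 60.2, 59.9 and 86.1 against 50.2, 46.1 and 49.2 (log2 change 0.55 ± 0.15, edgeR adjusted p = 0.101; 0.37 and adjusted p = 0.00445 without replicate 3). Xaf1, a pro-apoptotic partner of XIAP, had 3.37, 4.00 and 8.22 against 2.22, 2.52 and 2.26 (1.20 ± 0.34, edgeR adjusted p = 0.115; 0.72 and adjusted p = 0.00630 without replicate 3).

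**Figure D3:**
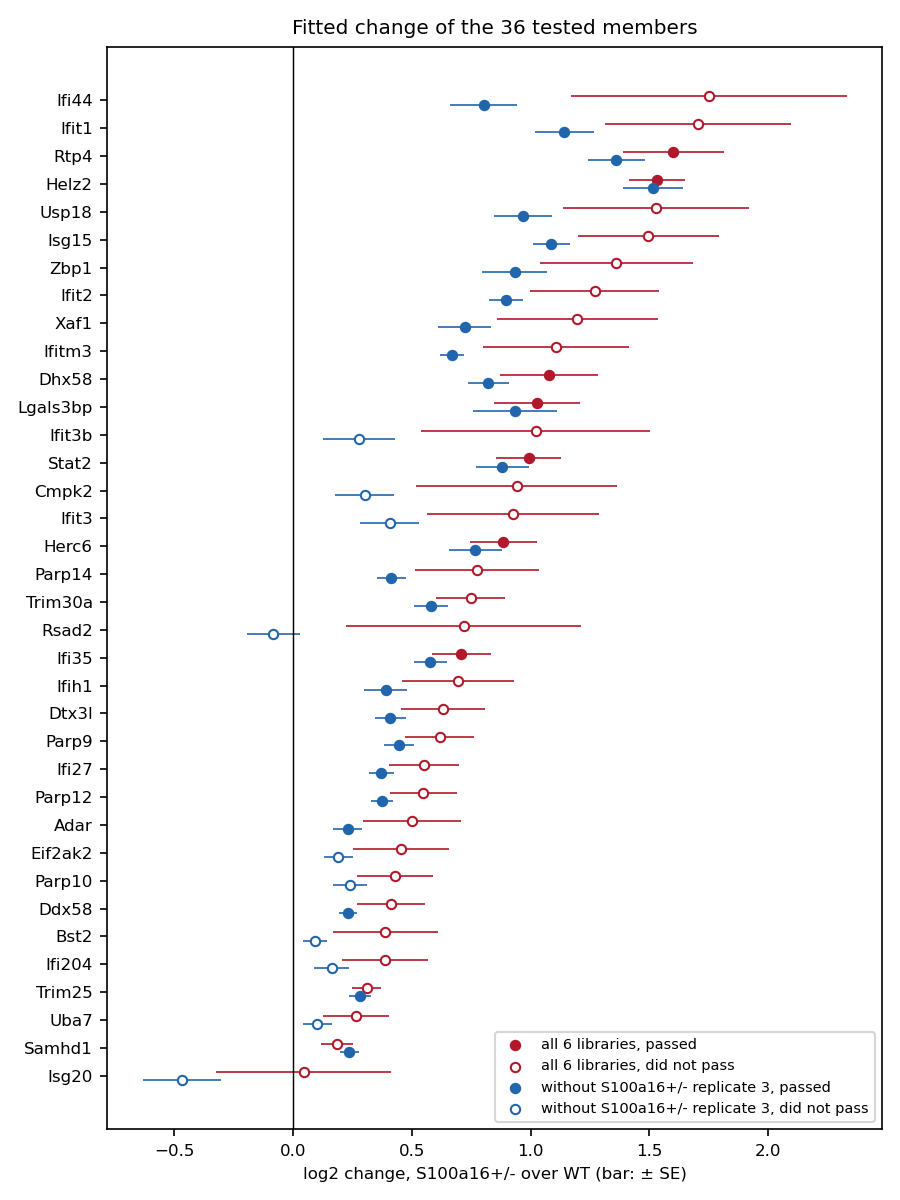
Fitted log2 change, S100a16+/- over WT, of the 36 tested members (rows, sorted by the change with all 6 libraries), with bars of ± 1 SE, red with all 6 libraries and blue without S100a16+/- replicate 3, filled where the gene passed the edgeR test. The red bars are the wider ones, 7 red and 26 blue points are filled, and the blue points of Rsad2 (-0.08) and Isg20 (-0.47) lie below 0.

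FPKM levels spanned a wide range, and the most abundant member differed between the groups. In WT the most abundant members were Bst2 (217 ± 2.67, SD, n = 3), Ifitm3 (183 ± 7.04), Lgals3bp (126 ± 26.2) and Ifi27 (48.5 ± 2.10), none of whose WT ranges overlapped. In S100a16+/- the order of the means was Ifitm3 (384 ± 181), Bst2 (275 ± 93.6) and Lgals3bp (247 ± 31.6), whose ranges overlapped one another. Replicate 3 set the place of Bst2 over Lgals3bp (383 against 283). In replicates 1 and 2 Bst2 (212 and 231) was below Lgals3bp (222 and 238). Ifi204 and Trim25 came next after Ifi27 over all 6 libraries. The least abundant members in WT were Mx1 (0.431 ± 0.0941), Mx2 (0.545 ± 0.0398) and Ifi44 (0.918 ± 0.0767), and the first pair did overlap.

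The excess of S100a16+/- replicate 3 over its group was shared by the members but uneven in size. The ratio of its FPKM to the mean of replicates 1 and 2 had a median of 1.65 over the 38 genes and was above 1 in 37. It reached 2 in 13 of the 38, beside 5.26% of tested genes. After Ifi44 the highest ratios were those of Mx2 (3.55), Rsad2 (3.31), Ifit3b (3.12) and Cmpk2 (2.75). The lowest were those of Samhd1 (0.92), Helz2 (1.07) and Trim25 (1.09). Among the 7 called genes the ratio ran from 1.07 (Helz2) to 1.62 (Dhx58), all below that median. The test weighs the spread within a group, so this is not independent of the calls.

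In S100a16+/- replicates 1 and 2 the members stood apart from WT by smaller steps. Both replicates were above every WT library for 30 of the 38, beside 23.5% of tested genes. They were below every WT library for 2 of the 38, Mx2 and Isg20, beside 36.4% of tested genes. The median log2 ratio to the WT mean over the 36 tested members was 0.37 in replicate 1, 0.50 in replicate 2 and 1.18 in replicate 3. Genes with and without the ISRE core in their window were alike in replicates 1 and 2. The medians were 0.30 and 0.49 for the 12 genes with it and 0.37 and 0.49 for the 15 without it. In replicate 3 the medians were 1.40 and 0.99, and the ratio of replicate 3 to the others had medians of 1.89 and 1.42, while 1 of the 12 and 4 of the 15 passed the test. These group medians were not tested, and the 11 genes with no window had medians of 0.38, 0.51 and 1.48 in replicates 1 to 3.

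**Figure D4:**
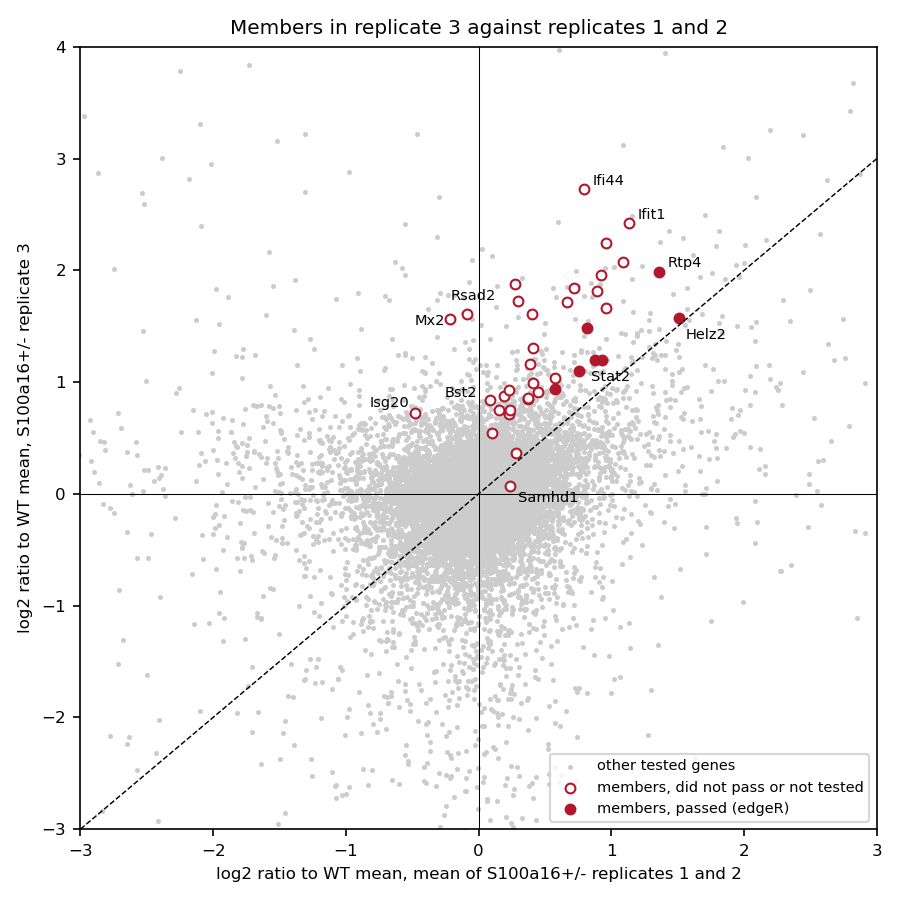
Log2 ratio of CPM to the WT mean in S100a16+/- replicate 3 (vertical) against the mean of replicates 1 and 2 (horizontal), for the 38 members (red, filled where the gene passed the edgeR test) and 12582 of the 12730 other tested genes (grey), with a dashed line where the axes are equal; 119 other genes lie outside the axes. Members lie mostly above the dashed line, with Helz2 and Rtp4 far to the right, Mx2, Rsad2 and Isg20 left of 0, and Samhd1 below the line.

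The genes that make, sense and relay interferon were described from lists of 21 ligand genes, 14 receptor and JAK-STAT genes, and 20 genes linked to interferon induction. Interferon transcripts themselves were nearly undetected. Of the 21 ligand genes 18, including Ifnb1 and every interferon alpha gene listed, had no count in any of the 6 libraries, where 3 counts of the 417586002 in all would be a CPM of 0.00718 (counting error only). The other 3, Ifne, Ifng and Ifnz, reached at most 9 counts in a library. These values describe the RNA at harvest.

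None of the 12 tested receptor and JAK-STAT genes passed with all 6 libraries. Without S100a16+/- replicate 3, 2 of the 12 rose and 2 fell (edgeR), beside 15.8% and 16.5% of all tested genes. Tyk2 (log2 change 0.33, edgeR adjusted p = 0.00674) and Ptpn6 (0.64, adjusted p = 0.00399) rose, and Ifngr1 and Socs3 fell. Ifnar1 had FPKM values of 17.0, 16.8 and 18.05 against 16.6, 17.5 and 24.0, and Ifnar2 had 24.3, 25.9 and 31.1 against 28.7, 29.3 and 28.6. The groups overlapped for both receptor chains (log2 changes -0.11 and -0.04, edgeR adjusted p = 0.715 and 0.835). Irf9, whose product joins STAT2 in ISGF3, was highest in replicate 3 and did not pass. It had 6.65, 6.35 and 10.5 against 6.13, 5.32 and 4.28 (log2 change 0.63, edgeR adjusted p = 0.190; 0.37 and adjusted p = 0.124 without replicate 3).

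Of the 20 genes linked to interferon induction 4 rose (20%, beside 2.85% of all tested genes) and none fell (beside 1.61%). Irf7, the transcription factor that amplifies interferon alpha production and is itself an interferon target, had the largest change of them. Its FPKM was 13.7, 21.0 and 33.1 against 6.42, 7.17 and 6.13, so every S100a16+/- library was above WT and the 3 were far from one another (log2 change 1.83 ± 0.31, edgeR adjusted p = 0.0383; 1.47 and adjusted p = 0.00322 without replicate 3). Ikbke, a kinase of IRF3 and IRF7, had 18.5, 19.7 and 21.9 against 11.7, 11.9 and 11.6 (0.82 ± 0.07, edgeR adjusted p = 0.00847). Ticam2, the TRAM adaptor of Toll-like receptor 4, had 3.59, 3.68 and 3.16 against 2.41, 2.55 and 2.44 (0.55, edgeR adjusted p = 0.0430). Myd88, the adaptor of most Toll-like receptors, had 25.2, 24.4 and 23.8 against 19.1, 20.4 and 20.4 (0.35, edgeR adjusted p = 0.0437). All of these passed without replicate 3 too, and Ikbke, Ticam2 and Myd88 differed from WT by similar amounts in all 3 S100a16+/- libraries, with replicate 3 the lowest of them for the last pair. Without replicate 3, 8 of the 32 tested pathway genes rose (25%, beside 15.8% of all tested genes) and 4 fell (12.5%, beside 16.5%) by edgeR. These 4 were the endosomal receptors Tlr7 and Tlr9 (-1.67 and -1.61), Ifngr1, a chain of the interferon gamma receptor (-0.84), and the feedback inhibitor Socs3 (-0.48).

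The cultures held RNA of other liver cells, and its makeup moved with the groups. In bulk RNA, fewer cells of a type and less RNA per cell cannot be told apart. Of 20 macrophage markers, all tested, 5 rose in S100a16+/- (edgeR: Adgre1, Cd5l, Msr1, Marco and Cd14), beside 2.85% of all tested genes. The summed FPKM of the list was 17259, 18498 and 13550.3 in S100a16+/- and 10638 to 11198 in WT. Lyz2 was the largest single part of that sum, with 9230.5, 10057 and 5460.04 in S100a16+/- and 4377 to 4595 in WT. The list did not move one way. Without replicate 3, 10 of its 20 markers rose and 6 fell (edgeR), beside 15.8% and 16.5% of all tested genes. The 6 that fell were Cd163 (log2 change -1.72), Mrc1 (-0.63), C1qa, C1qb, C1qc and Timd4. Of 15 stellate cell markers none passed and 6 (Lrat, Rgs5, Gfap, Reln, Ngfr and Lhx2) stayed under an FPKM of 1. The summed level of this list was 1086, 1058 and 137 in S100a16+/- and 922 to 1039 in WT. Replicate 3, where the members were highest, was thus low in stellate markers, while its 15 endothelial markers summed to 2153, against 867 and 831 in replicates 1 and 2 and 1730.3 to 1881 in WT. Its 13 hepatocyte markers summed to 523, against 11.1 and 10.4 in replicates 1 and 2 and 72.2 to 106 in WT, and none of the tested endothelial or hepatocyte markers passed with all 6 libraries. Without replicate 3, in the fit that called 26 members, 11 of 12 tested endothelial and 8 of 8 tested hepatocyte markers fell (edgeR). None of them rose, beside 15.8% of all tested genes called higher and 16.5% called lower. Among those that fell were Pecam1 (-1.19), Stab2 (-1.93), Lyve1 (-1.98) and Alb (-3.35). Of 9 tested stellate markers 4 rose and 1, Col3a1, fell in that fit. The part of these differences in the interferon-stimulated genes was not tested.

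Plasmacytoid dendritic cells, the strongest producers of interferon alpha, were looked for with 8 markers, of which Bst2 is also a member of the interferon list and supplied most of the summed level. Their defining marker Siglech had an FPKM of at most 0.0163, Klk1 had no count, and Spib and Ccr9 stayed under 1. Others on the list were expressed, with Tcf4 at 2.87 to 7.38 and Irf8 at 6.65 to 15.9 over the 6 libraries. Ly6d was 1.89 in S100a16+/- replicate 3 and at most 0.188 elsewhere. Which cells these transcripts came from was not tested. The neutrophil markers Ly6g, S100a9, Ngp and Retnlg had no count in any library, and 12 of 14 T and NK cell markers were under 1. The neutrophil marker S100a8 rose (edgeR, beside 2.85% of all tested genes). It was the only 1 of the 10 on its list that was tested, and the other 9 stayed under an FPKM of 1. The mitochondrial transcripts, a sign of RNA quality, summed to 22152 to 24704 with no split by genotype.

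The deposited annotation terms show what the members share by function. Of the 38, 22 carried "defense response to virus", a term of 1.08% of tested genes, and 20 carried "innate immune response" (2.19%). "Negative regulation of viral genome replication" was given to 8 (0.243%) and "double-stranded RNA binding" to 6 (0.533%). Since the list was assembled by known function, with earlier results of these data known, these shares describe its makeup.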

How the data were processed

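Poly(A) RNA of 6 cultures, 3 S100a16+/- and 3 WT, was sequenced as strand-marked paired-end libraries whose adapters carried unique molecular identifiers, per the labels' protocols. The authors deposited a whole-number count and an FPKM value for each of 55401 genes and each library, per the file headers. FPKM is listed as 0.0001 where the count is 0. The tools, per the submitters' processing notes, included HISAT2 2.0.4 and StringTie 1.3.4d, with cutadapt 1.9, edgeR, DESeq2 and UMI-tools. The sources used here do not give their roles, the genome build, use of strand or collapsing of identifiers, and gene coordinates are printed as deposited.

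The members and all lists were chosen with earlier results of these data known. Genes that reached an FPKM of 1 in 3 or more libraries were tested on deposited counts with edgeR 4.0.16 (R 4.3.3; TMM scaling, quasi-likelihood, genotype as the only term, Benjamini-Hochberg adjustment over all 12766 genes) and called at an adjusted p under 0.05, two-sided. SEs were taken as |log2 change| over the root of edgeR's F. The steps were tested on simulated data. Alternatives used DESeq2 1.42.0, limma 3.58.1 on log2(FPKM + pseudocount), other filters and scalings, a replicate block and each library left out. The rule for values in every library took members that passed, the 6 most abundant, the 4 largest and 4 smallest changes and set pathway genes. Other members with such values, and the grouping by ISRE core, were chosen after values were seen. Promoters are RefSeq windows of GRCm38.p6, matched by symbol. Near-identical transcripts were searched in GENCODE M21. Library totals of 61979103 to 76291481 counts set the precision, and no per-sample column was left out.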

Additional observations from a re-analysis of the deposited data

How the results depend on the processing

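With all 6 libraries, 7 of 36 tested members and 4 of 32 tested pathway genes were called. Counts within 1.5 times of these came from a mean FPKM of at least 5 (7 and 3), RLE size factors (6 and 4) and library totals (5 and 3). Without a filter on low values the calls fell to 3 and 1, beside 0.572% of 28336 genes called higher. DESeq2 gave 22 and 7. Limma gave 3 and 1 with a pseudocount of 1, 3 and 1 with 0.1, and 4 and 1 with 5, beside 2.04%, 1.94% and 1.96% of genes. Leaving out 1 library in turn gave 0 to 26 members and 0 to 12 pathway genes, the highest without S100a16+/- replicate 3. With the replicate number as a replicate block the calls were 0 and 0, and no gene of the table passed (0 higher, 0 lower). Same-numbered libraries correlated at -0.16, 0.05 and -0.08 in their deviations from group means. Such deviations sum to 0 within a group of 3, and S100a16+/- replicate 3 stood apart, so these values cannot show or exclude pairing. The numbers were not taken as pairs in the main fit. Over all genes, higher against lower calls were 364 and 206, and 282 and 252 with library totals.

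Of the 7 called members, Helz2 was called in 13 of 15 alternatives, Stat2 and Rtp4 in 9, Lgals3bp in 6, Herc6 in 5 of 14, Ifi35 in 4 and Dhx58 in 3, and all 7 were called without S100a16+/- replicate 3. Rsad2 changed sign without that library (-0.083), with left-out fits from -0.083 to 1.01. Isg20 changed sign with library totals (-0.0040), limma with pseudocounts 1, 0.1 and 5 (-0.060, -0.12 and -0.012), the replicate block (-0.072) and without S100a16+/- replicate 3 or WT replicate 1 (-0.47 and -0.023), with left-out fits from -0.47 to 0.29. No other tested member changed sign under the alternatives run, and the cause of these shifts was not tested. With 3 libraries a group, S100a16+/- replicate 3 sets much of the error, and Mx1 and Mx2 were too low to test.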
